A study of Mus musculus with 6 samples.

Results

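The thrombospondin family and its cell-surface receptors were followed in mouse lung through 7 genes: Thbs1, Thbs2, Thbs3, Thbs4 and Comp, which encode the 5 thrombospondins, and Cd36 and Cd47, which encode receptors for them. The members were taken by gene symbol from the authors' gene table, and the probe set with the highest mean over the 6 arrays stood for each gene. All 7 were found, of 21630 genes with a symbol, through 8 probe sets, since Cd47 had 2. The lungs came from 6 C57BL/6 mice, 8 weeks old, each given 100 uL of medium a day into the peritoneum for 7 days, and whole-lung RNA was read on Affymetrix mouse gene arrays. For Control mice, replicates 2 and 4, this was RPMI alone. PC3 mice, replicates 4 and 5, were given medium in which PC3, a human prostate cancer cell line, had grown. For LN4 mice, replicates 1 and 3, the medium came from PC3M-LN4, a metastatic line derived from PC3. Each mouse gave 1 array, so a group mean rests on 2 mice, and the protocols name no tumour in the mice themselves. The study's question, as known, was how media from metastatic and less metastatic cells act on the lung, with thrombospondin-1 among the genes of interest.

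Thrombospondins are secreted glycoproteins that sit between cells and matrix and tune adhesion, growth factor activity and vessel growth. Thrombospondin-1 and thrombospondin-2 assemble as trimers and carry the properdin-like repeats through which they bind CD36 on endothelium and restrain angiogenesis. Thrombospondin-3, thrombospondin-4 and COMP, the cartilage oligomeric matrix protein, assemble as pentamers and lack those repeats. CD36 is a scavenger receptor that also carries fatty acids into capillary endothelium, macrophages and adipocytes. CD47 is a widely expressed membrane protein that binds the carboxyl end of thrombospondin-1 and, through SIRP-alpha, signals to phagocytes not to engulf the cell.

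Values are log2 values from RMA (robust multi-array average), so 1 unit is a 2-fold difference, and genes are not ranked against each other because probe sets differ in brightness. The detected share of exon-level probe sets was 35.4% to 39.8% in LN4 replicate 1, Control replicate 2 and PC3 replicate 4, here the low-detection arrays. It was 46.1% to 50.9% in the other 3, the high-detection arrays, so every group holds one of each. Within each class the share was lowest in the LN4 array and highest in the PC3 array. LN4 replicate 3 stood apart, with a Pearson correlation across tested probe sets of 0.918 to 0.933 with the other arrays, against 0.961 to 0.990 among those. It held 9 of 10 skeletal muscle markers and 10 of 10 squamous epithelium markers above the negative controls, and PC3 replicate 4 held 5 of the squamous markers, whereas the remaining arrays held 0 of both lists. The 10 alveolar markers were above the negative controls in all 6 arrays, which fits the label of lung. Differences of the 4 members that lay above background, and the pathway list medians in LN4 minus PC3, are therefore also given without LN4 replicate 3.

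Thbs1, Thbs3, Cd36 and Cd47 lay above the 95th percentile of the negative control probe sets in all 6 arrays, and each had its lowest 2 values in the 2 LN4 lungs. Thbs2, Thbs4 and Comp lay below that level in all 6 arrays, so their values are close to background. No member passed the limma fit across all 21330 tested probe sets in any of the 3 comparisons (Benjamini-Hochberg adjusted p under 0.05).

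**Figure D1:**
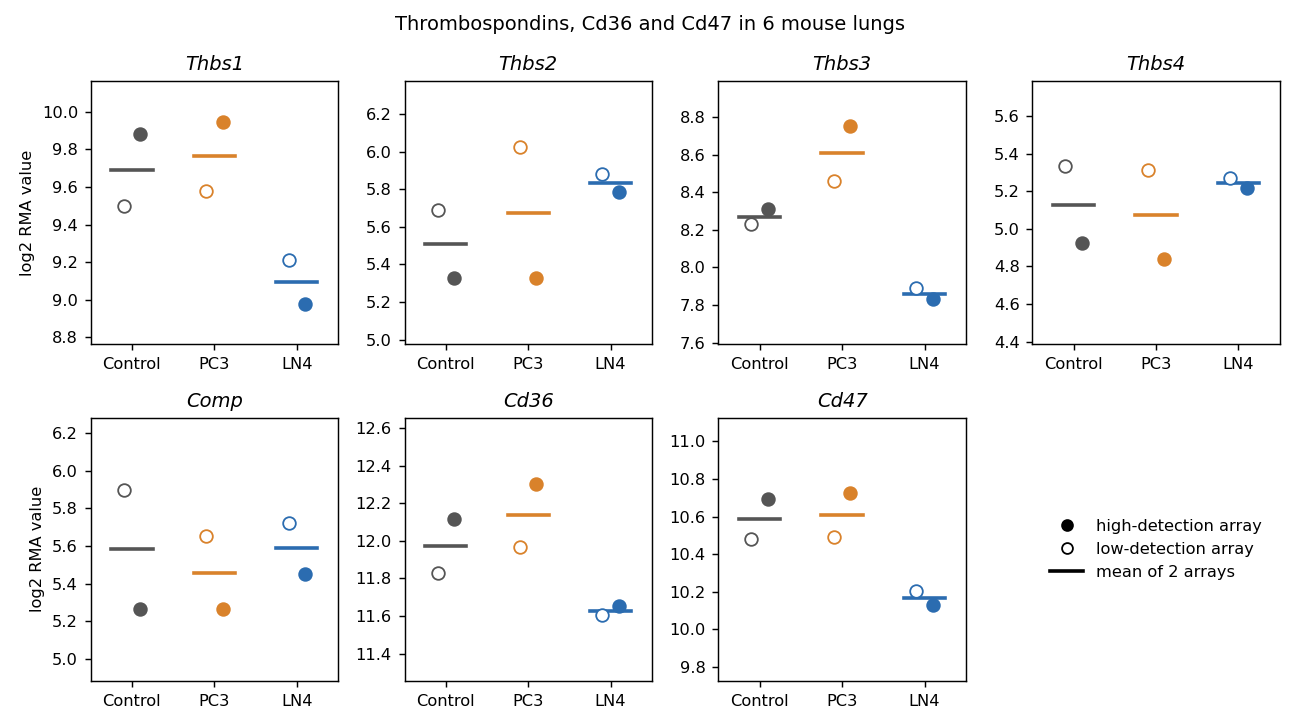
Log2 RMA value of each member (vertical axis, a window of 1.4 log2 units in each panel) in the Control, PC3 and LN4 lungs. Points are single lungs, open for low-detection and filled for high-detection arrays, and bars are means of 2. For Thbs1, Thbs3, Cd36 and Cd47 both LN4 points lie under all other points.

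Thbs1, which encodes thrombospondin-1, was at 9.50 and 9.88 in Control replicates 2 and 4, at 9.58 and 9.95 in PC3 replicates 4 and 5, and at 9.21 and 8.98 in LN4 replicates 1 and 3. The Control and PC3 lungs interleaved, and the LN4 lungs lay below all of them. LN4 lungs were 1.59-fold lower than PC3 lungs, a difference of -0.67 (SE 0.23, 95% interval -1.21 to -0.13, n = 2 a group, limma adjusted p = 0.842). The interval is that of the single gene, unadjusted for the number of probe sets. Of all tested probe sets, 1.41% differed by as much or more in the same direction. Against Control lungs the difference was -0.59 (SE 0.23, interval -1.13 to -0.06, limma adjusted p = 0.9997), or 1.51-fold lower. PC3 and Control lungs differed by 0.07 (interval -0.47 to 0.61), and this sign turned when Control replicate 2 (-0.12) or PC3 replicate 5 (-0.11) was left out. In whole lungs, fewer cells that make a transcript and less of it per cell cannot be told apart.

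The size of the Thbs1 gap depended on which lungs were set side by side. LN4 minus PC3 was -0.37 between the low-detection arrays and -0.97 between the high-detection arrays, the second of which uses LN4 replicate 3. Without LN4 replicate 3 the difference was -0.55, and without PC3 replicate 4 it was -0.85. LN4 minus Control was -0.29 and -0.90 in the same low and high order, -0.48 without LN4 replicate 3 and -0.40 without Control replicate 4. Every one of these values is negative, which had to be so, since both LN4 lungs lay below all the others.

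Thbs3, which encodes one of the pentameric thrombospondins and is known for a role in skeletal growth in mice, was at 8.23 and 8.31 in Control replicates 2 and 4. It was at 8.46 and 8.75 in PC3 replicates 4 and 5 and at 7.89 and 7.83 in LN4 replicates 1 and 3. The 3 groups did not overlap: both PC3 lungs lay above and both LN4 lungs below both Control lungs. The same order of non-overlapping groups was found for 378 of all tested probe sets (1.77%), and for 2.52% of those above the negative controls. LN4 lungs were 1.68-fold lower than PC3 lungs, a difference of -0.75 (SE 0.18, 95% interval -1.18 to -0.31, limma adjusted p = 0.842). This was -0.57 between low-detection and -0.92 between high-detection arrays, and -0.72 without LN4 replicate 3. The difference from Control lungs was -0.41 (SE 0.18) in LN4 and 0.34 (SE 0.18) in PC3 lungs, and both 95% intervals reached past 0 (-0.85 to 0.03 and -0.10 to 0.78). PC3 minus Control was 0.19 without PC3 replicate 5 and 0.48 without PC3 replicate 4, and LN4 minus Control was -0.38 without LN4 replicate 3. The SD between the 2 lungs of a group was 0.06 for Control, 0.21 for PC3 and 0.04 for LN4, each smaller than the gap between group means. Among its chromosomal neighbours, looked up after the values of Thbs3 were seen, Mtx1, a mitochondrial import gene, lay between 7.85 and 8.04 in all 6 lungs, with LN4 minus PC3 at 0.03 (SE 0.17). Muc1, an epithelial mucin on the other side, differed by -0.56 (SE 0.25), with 10.74 in LN4 replicate 1 and 10.07 in replicate 3.

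Cd36, the scavenger and fatty acid receptor, was at 11.83 and 12.12 in Control replicates 2 and 4, at 11.97 and 12.30 in PC3 replicates 4 and 5, and at 11.60 and 11.65 in LN4 replicates 1 and 3. The LN4 lungs were close to each other and below the rest, and the Control and PC3 lungs interleaved. LN4 minus PC3 was -0.51 (SE 0.20, interval -0.99 to -0.03, limma adjusted p = 0.842), or 1.42-fold lower. It was -0.36 between low-detection and -0.65 between high-detection arrays and -0.53 without LN4 replicate 3. LN4 minus Control was -0.35 (SE 0.20, interval -0.83 to 0.14), -0.37 without LN4 replicate 3 and -0.20 without Control replicate 4. PC3 minus Control was 0.16 (interval -0.32 to 0.65), and about 0 without PC3 replicate 5.

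Cd47, the receptor for the carboxyl end of thrombospondin-1, was at 10.48 and 10.69 in Control replicates 2 and 4, at 10.49 and 10.72 in PC3 replicates 4 and 5, and at 10.20 and 10.13 in LN4 replicates 1 and 3. Control and PC3 lungs thus held nearly the same pair of values, 0.02 apart in the mean (interval -0.42 to 0.46), and the LN4 lungs lay below both. LN4 minus PC3 was -0.44 (SE 0.19, interval -0.89 to 0.00122, limma adjusted p = 0.842), and LN4 minus Control was -0.42 (SE 0.19, interval -0.87 to 0.02). Without LN4 replicate 3 they were -0.40 and -0.38, and LN4 minus PC3 was -0.56 without PC3 replicate 4. A second Cd47 probe set, annotated by the authors' table to an isoform of the gene, did not repeat the order. It was at 9.73 and 9.85 in Control, 9.35 and 9.70 in PC3, and 9.72 and 9.03 in LN4 lungs, so that LN4 replicate 1 lay level with the lower Control lung, while PC3 replicate 4 and LN4 replicate 3 were the 2 lowest. With the 2 probe sets averaged, LN4 minus PC3 was -0.29, and PC3 minus Control turned to -0.12.

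The promoters of these genes are shown because 4 members were low in the same 2 lungs, as letters for the reader and not as evidence of a factor. RefSeq entries in the GRCm38.p6 build matched 5 of the 7 members, all but Thbs1 and Comp. The 250 bases before the start are printed for the 3 of them that lay above the negative controls, 5′ to 3′ on the strand of the gene, and capitals mark motif matches. The positions are chr3:89214930-89215179 on the plus strand for Thbs3, chr5:17835897-17836146 on the minus strand for Cd36, and chr16:49855404-49855653 on the plus strand for Cd47, the first of its 2 listed starts.
Thbs3: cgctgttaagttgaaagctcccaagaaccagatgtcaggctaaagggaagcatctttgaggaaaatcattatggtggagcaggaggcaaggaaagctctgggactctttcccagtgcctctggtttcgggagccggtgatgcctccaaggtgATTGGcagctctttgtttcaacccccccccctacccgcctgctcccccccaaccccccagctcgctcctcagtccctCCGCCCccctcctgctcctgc
Cd36: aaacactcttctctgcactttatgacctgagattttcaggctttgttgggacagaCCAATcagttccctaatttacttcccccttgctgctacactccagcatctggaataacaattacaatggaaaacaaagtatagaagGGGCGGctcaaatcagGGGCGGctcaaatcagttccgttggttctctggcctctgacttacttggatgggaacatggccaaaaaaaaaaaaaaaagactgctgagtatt
Cd47: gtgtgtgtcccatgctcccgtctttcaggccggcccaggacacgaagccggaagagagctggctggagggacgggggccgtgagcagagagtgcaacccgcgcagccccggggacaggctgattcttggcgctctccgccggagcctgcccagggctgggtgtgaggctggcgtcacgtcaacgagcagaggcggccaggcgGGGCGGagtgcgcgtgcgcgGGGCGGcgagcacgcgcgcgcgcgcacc
The capitals are the GC box GGGCGG, which 32.7% of 32851 RefSeq mouse promoter windows of the same length hold on either strand, and the CCAAT box CCAAT, which 33.9% hold. Thbs3 has a GC box that begins 21 bases before the start and a CCAAT box at 98, both read on the opposite strand. Cd36 has GC boxes at 109 and 93 and a CCAAT box at 195 bases before the start, and Cd47 has GC boxes at 48 and 28. The TATA box TATAAA (12.4% of windows), the AP-1 site TGANTCA (6.75%), the Egr site GCGGGGGCG (2.57%), the E-box CACGTG (6.02%) and the direct repeat bound by PPAR, a pair of AGGTCA with 1 base between (0.0335%), were searched on both strands and had no match in these letters. No motif overlapped another. The windows differ widely in base composition: G and C made up 73.2% of that of Cd47, 58.8% of that of Thbs3 and 43.2% of that of Cd36, against a median of 52.4% over all windows. The number of CpG dinucleotides was 30, 6 and 3 in the same order, against a median of 6. Thus 3 genes that were low in the same lungs have windows of unlike composition.

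Thbs2, Thbs4 and Comp gave no level that could be read as expression. Thbs2, the second trimeric thrombospondin, was at 5.69 and 5.33 in Control, 6.02 and 5.33 in PC3, and 5.88 and 5.79 in LN4 lungs. Both LN4 lungs lay above both Control lungs, with LN4 minus Control at 0.32 (SE 0.27, interval -0.32 to 0.96), where 12% of all tested probe sets were higher without overlap. This difference was 0.14 without Control replicate 4, and the PC3 lungs spanned the range of all of them. Thbs4, known from tendon, heart and muscle, was at 5.33 and 4.92 in Control, 5.31 and 4.84 in PC3, and 5.27 and 5.22 in LN4 lungs. Comp, of cartilage and tendon, was at 5.90 and 5.27 in Control, 5.65 and 5.26 in PC3, and 5.72 and 5.45 in LN4 lungs. In all 3 genes the high-detection array of each group was the lower of the pair, by 0.06 to 0.69. Although LN4 replicate 3 held skeletal muscle genes, with Acta1, skeletal muscle actin, at 12.04 against 6.87 in LN4 replicate 1, its Thbs4 was at 5.22. The cartilage markers, 10 on the array, were below the negative controls in all 6 arrays. The signs of the Thbs4 and Comp differences turned in all 3 comparisons when 1 lung or another was left out, and so did those of Thbs2 in 2 of them.

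Set side by side, 4 of 7 members had both LN4 arrays below both PC3 arrays, where 18.1% of all tested probe sets did, or 25.6% of the 8658 with a mean above the negative controls. Against Control lungs it was again 4 of 7, with a background of 16.9%, or 21.4% of those above the negative controls. The members were chosen with earlier results of these data known, and these 2 comparisons share the LN4 arrays, so they are not separate observations. With LN4 replicate 3 left out, an alternative chosen after seeing the data, the count stayed at 4 in both comparisons. It could not fall, since groups that do not overlap still do not when an array is left out. The background grew to 34.5% against PC3 and 33.8% against Control, since fewer arrays overlap less. With PC3 replicate 4 left out too, it was 47.4% against PC3. Among probe sets above the negative controls, where all 4 lie, the shares in these settings were 49.6% against PC3, 47% against Control and 66.5% against PC3. Those shares cannot be set against a count over 7, since Thbs2, Thbs4 and Comp lie below the negative controls. No conclusion is drawn from the count in these settings. In PC3 minus Control, 1 of 7 members, Thbs3, had both PC3 arrays above both Control arrays, against a background of 16.4%. The median difference of the 7 members was -0.44 in LN4 minus PC3, -0.35 in LN4 minus Control and 0.07 in PC3 minus Control, and the same medians over all 17011 tested genes were -0.03, -0.01 and 0.03. Of all probe sets, 0 (0%) passed the limma fit in each comparison, and 1094 had an unadjusted p under 0.05 in LN4 minus PC3 (5.13%), 437 in LN4 minus Control (2.05%) and 477 in PC3 minus Control (2.24%). Among the members, 3, Thbs1, Thbs3 and Cd36, were among the first of these, and 1, Thbs1, among the second, and 0 among the third. The spread behind these p-values is pooled over all 6 arrays and so includes the difference between the 2 LN4 lungs.

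**Figure D2:**
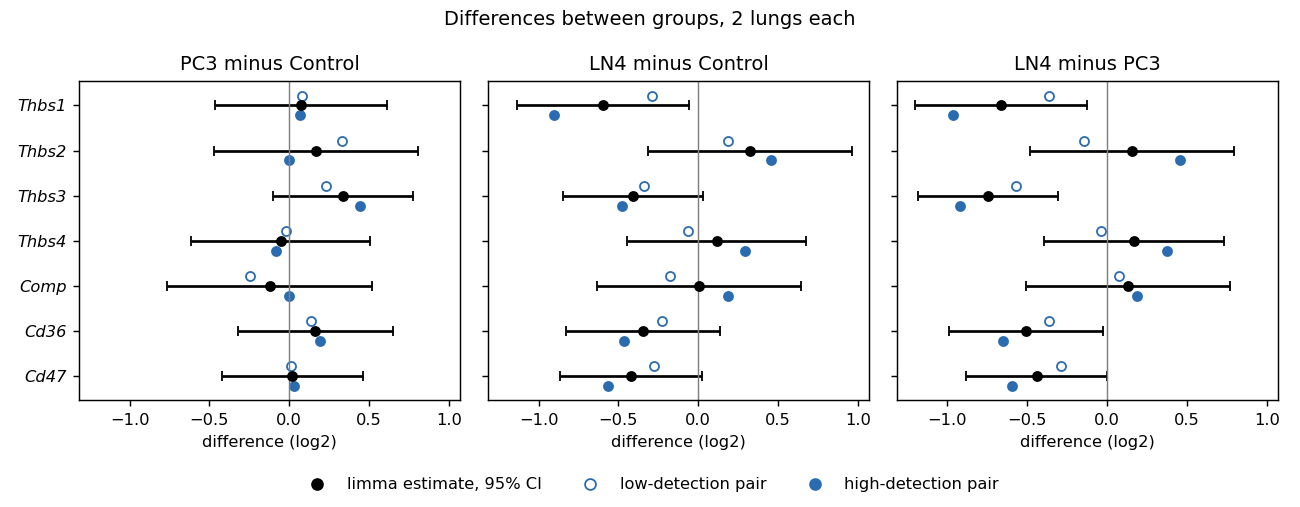
Difference in log2 RMA value between groups (horizontal axis) for each member in the 3 comparisons. Black points are limma estimates with 95% intervals, and blue points the difference within the low-detection (open) and high-detection (filled) pair of arrays. In both comparisons with LN4, Thbs1, Thbs3, Cd36 and Cd47 lie left of 0 in both pairs, which follows from both LN4 lungs lying below all others.

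Leaving out LN4 replicate 3 and PC3 replicate 4 together, the arrays with squamous genes, took 3 members past the threshold in LN4 minus PC3: Thbs3 at -0.86 (limma adjusted p = 0.0105), Thbs1 at -0.73 (adjusted p = 0.0355) and Cd36 at -0.70 (adjusted p = 0.0441). Cd47, at -0.52, did not pass (adjusted p = 0.140). That fit sets 1 low-detection LN4 lung against 1 high-detection PC3 lung and takes its spread from the 2 Control lungs alone, and 2593 probe sets passed it.

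The 4 members above the negative controls had similar profiles over the 6 lungs. Some likeness follows from all 4 having their lowest 2 values in the LN4 lungs. It was not particular to them, since the 5 genes nearest to each, named below, were closer (0.03 to 0.07) than any 2 members. The share of all tested genes as close as the members was not counted. After each gene was centred on its own mean, the root-mean-square difference between 2 profiles was 0.08 for Cd36 and Cd47, 0.12 for Thbs3 and Cd36, 0.12 for Thbs1 and Cd47, 0.13 for Thbs1 and Cd36, and 0.15 for Thbs1 and Thbs3 and for Thbs3 and Cd47. The distances between any of these 4 and Thbs2, Thbs4 or Comp ran from 0.38 to 0.56. Part of the likeness lay within groups. Thbs1 was higher in the high-detection than in the low-detection array by 0.38 in Control and 0.37 in PC3 lungs. The gap was 0.28 and 0.34 for Cd36, 0.21 and 0.23 for Cd47, and 0.08 and 0.29 for Thbs3. In LN4 lungs it was -0.23 for Thbs1, 0.05 for Cd36, -0.07 for Cd47 and -0.06 for Thbs3. Detection thus moved with Thbs1, Cd36 and Cd47 in Control and PC3 lungs, and with Thbs3 mainly in PC3 lungs. Since every group holds one array of each class, a fit with the class as a block leaves the differences as they are. It gave LN4 minus PC3 a limma adjusted p of 0.548 for each of the 4 genes. Within each class the detected share still rose from LN4 to Control to PC3. It was 35.4%, 38.4% and 39.8% in the low-detection arrays, and 46.1%, 48.4% and 50.9% in the high-detection arrays. The block does not take out this order, and its part in the differences was not tested.

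**Figure D3:**
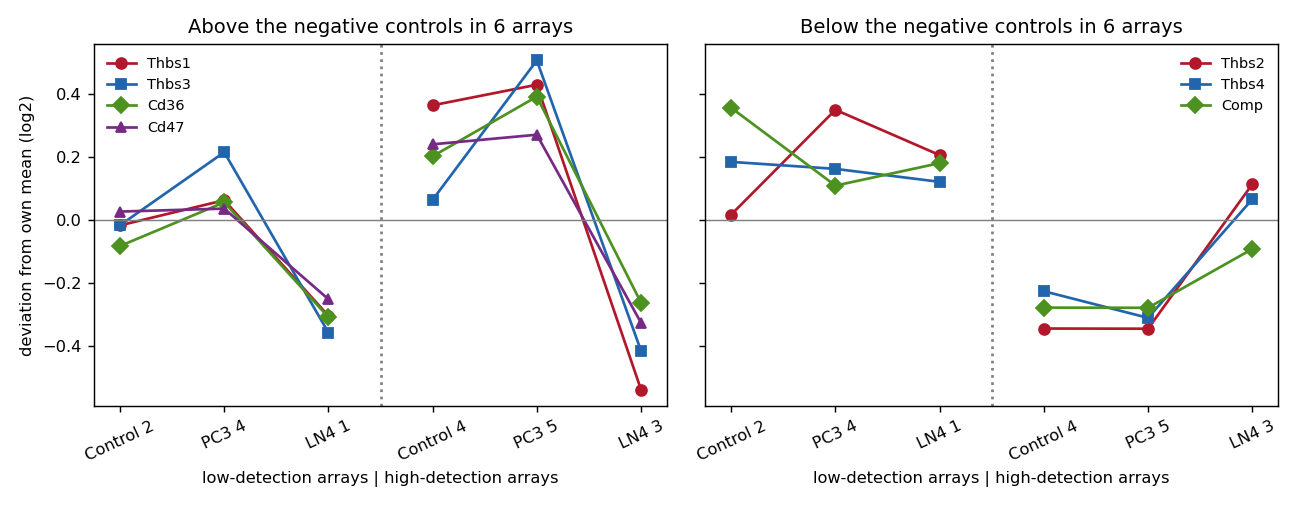
Deviation of each member from its own mean over the 6 lungs (vertical axis, log2) for the 4 genes above (left panel) and the 3 below (right panel) the negative controls, with the low-detection arrays left and the high-detection arrays right of the dotted line in each panel. Lines only join the points of a gene. Thbs1, Thbs3, Cd36 and Cd47 dip in the LN4 lung on either side of it, while Thbs2, Thbs4 and Comp are lower to its right in every group.

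The genes with the profiles most like each member were taken by the smallest such difference among 17011 tested genes, as a description over 6 lungs. For Thbs1 these were Abca3, the surfactant lipid transporter of alveolar type 2 cells (0.06), Itga4 (0.06), Glcci1 (0.06), Fbxl13 (0.06) and Soat1, a cholesterol-esterifying enzyme (0.07). Itga4 encodes the integrin alpha 4 chain, a thrombospondin-binding subunit. It was at 8.11 and 8.38 in Control, 8.20 and 8.43 in PC3, and 7.72 and 7.45 in LN4 lungs. For Thbs3 they included Ces1f (0.06), the scavenger collectin Colec12 (0.06), the myeloid integrin Itgax (0.07) and Lgi3 (0.07). For Cd36 they were Ift46, Ddx17, Zeb2, 4930503L19Rik and Foxf1, a mesenchymal and endothelial transcription factor of lung (0.03 to 0.04). For Cd47 they were Ift122, Sash3, Acoxl, Epb41l5 and Slc34a2, the phosphate transporter of alveolar type 2 cells (0.03 to 0.05). For Thbs2 and Comp, near the background, the closest were Nat8l (0.03) and Gm10300 (0.04).

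Other receptors and partners of thrombospondins, 20 genes all tested, had more lower than higher members in LN4 lungs. In LN4 minus PC3, 14 were lower, 0 passed the limma fit, and the median was -0.25 (-0.17 without LN4 replicate 3). Over all tested genes 54.8% were lower and the median was -0.03 (50.6% and -0.0043 without LN4 replicate 3). In LN4 minus Control it was 16 lower, with 52.8% of all tested genes, and a median of -0.15. In PC3 minus Control 9 were lower and the median was 0.01. Itga4 differed by -0.73 (SE 0.21) between LN4 and PC3 lungs and by -0.66 (SE 0.21) between LN4 and Control lungs. Itgb1, the beta 1 chain that pairs with it, was at 10.77 and 10.93 in Control, 10.91 and 11.11 in PC3, and 10.62 and 10.52 in LN4 lungs. Sirpa, the partner of Cd47 on phagocytes, was at 9.10 and 9.38 in Control, 9.66 and 9.35 in PC3, and 9.18 and 8.92 in LN4 lungs, with LN4 minus PC3 at -0.45 (SE 0.21). Itgav, the alpha V chain of another thrombospondin-binding integrin, was higher in both PC3 lungs, at 8.84 and 8.95 against 8.33 and 8.63 in Control lungs, a difference of 0.41 (SE 0.22). Scarb2 and Sdc4, a lysosomal relative of CD36 and a heparan sulfate proteoglycan, had both LN4 lungs below both Control lungs, by -0.31 (SE 0.19) and -0.31 (SE 0.20). Stim1, a calcium sensor, and Itga3, the integrin alpha 3 chain, separated PC3 from Control lungs, at -0.23 (SE 0.17) and 0.24 (SE 0.19).

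Of 24 other proteins with thrombospondin type 1 repeats 23 were tested, and 17 were lower in LN4 minus PC3, with a median of -0.19 and 0 passing. Without LN4 replicate 3 it was 11 lower and the median turned to 0.08. Adamts1, a matrix protease, was at 8.91 and 9.28 in Control, 8.74 and 9.07 in PC3, and 8.35 and 8.15 in LN4 lungs, and LN4 minus PC3 was -0.66 (SE 0.22). Ccn1, a matricellular protein with such a repeat, was at 10.36 and 10.43 in Control, 9.78 and 9.78 in PC3, and 9.40 and 9.30 in LN4 lungs. It was thus lower with both conditioned media, by -0.61 (SE 0.17) in PC3 and -1.04 (SE 0.17) in LN4 lungs, where Thbs1 differed by 0.07 and -0.59. Spon1, a matrix protein, differed by -0.54 (SE 0.21) in LN4 minus Control, with 8.12 in LN4 replicate 1 and 7.65 in replicate 3. Cfp, properdin of the alternative complement pathway, for which the repeat is also named, was at 7.20 and 7.14 in Control lungs. It was at 7.96 and 7.33 in PC3 and 7.40 and 7.45 in LN4 lungs, and only 2 of the 6 values were above the negative controls. Rspo3 and Ccn3 were below the negative controls in all 6 arrays.

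The 20 genes listed as regulators of Thbs1 or parts of the latent TGF-beta system, which thrombospondin-1 can activate, were split, with 9 lower and 11 higher in LN4 minus PC3, a median of 0.10 (-0.04 without LN4 replicate 3) and 0 passing. Psap, which encodes prosaposin, known to raise thrombospondin-1 in stroma, was at 12.05 and 12.24 in Control, 12.36 and 12.27 in PC3, and 11.99 and 11.98 in LN4 lungs. Its order was that of Thbs3, with LN4 minus PC3 at -0.33 (SE 0.17). Tgfb2 and Tgfb3, ligands of that system, differed by -0.51 (SE 0.20) and -0.45 (SE 0.19), and Tgfb2 was below the negative controls throughout. Ltbp1, which binds latent TGF-beta to the matrix, was at 7.65 and 7.40 in LN4 lungs and between 7.86 and 7.95 in the other 4 (LN4 minus PC3 -0.39, SE 0.18). Tgfb1 lay between 8.72 and 8.76 in the Control and PC3 lungs and at 8.63 and 8.38 in LN4 lungs. Myc, known to repress Thbs1, was at 8.74 in LN4 replicate 3 and between 6.38 and 6.73 in the other 5 lungs, and Cdkn1a was at 9.85 there and between 7.35 and 7.82 in the others. Egr1, near the background, was lower in both PC3 lungs, at 7.01 and 6.60 against 7.85 and 7.52 in Control lungs (-0.88, SE 0.22).

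Of 20 genes of Cd36 signalling and fatty acid handling, 19 were tested. In LN4 minus PC3, 10 were lower and the median was -0.05, against -0.03 over all tested genes. Without LN4 replicate 3 these medians were -0.09 and -0.0043. Fabp4, a fatty acid binding protein of capillaries and adipocytes, went the other way from Cd36, at 7.98 and 7.28 in LN4, 6.90 and 6.70 in PC3, and 7.04 and 7.71 in Control lungs. Only 2 of these 6 values were above the negative controls. Cav1, the caveolin of endothelium and alveolar type 1 cells, was at 10.93 and 11.20 in LN4 and 11.40 and 11.56 in PC3 lungs (-0.41, SE 0.20). Ptpn6, a phosphatase that acts downstream of SIRP-alpha and CD36, was at 7.71 in both LN4 lungs and between 7.89 and 8.09 in the others, and Slc27a1, a fatty acid transporter, was higher in PC3 than in Control lungs by 0.27 (SE 0.20). Pparg, which drives Cd36 transcription in macrophages, differed by -0.10 (SE 0.19).

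Among 20 matricellular and matrix partners, 19 were tested, and 13 were lower in LN4 minus PC3, with a median of -0.24 (-0.14 without LN4 replicate 3) and 0 passing. Fn1, which encodes fibronectin, showed the same separated order as Thbs3. It was at 9.88 and 9.83 in Control, 10.37 and 10.18 in PC3, and 9.51 and 9.42 in LN4 lungs, and LN4 minus PC3 was -0.81 (SE 0.17, limma adjusted p = 0.842). Sparcl1, a counter-adhesive matrix protein, differed by -0.64 (SE 0.20) and Bgn, the proteoglycan biglycan, by -0.50 (SE 0.20). Dcn, the proteoglycan decorin, set both PC3 lungs (10.53 and 10.28) above both Control lungs (9.57 and 9.90), and its LN4 lungs were far apart, at 9.42 and 10.43.

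**Figure D4:**
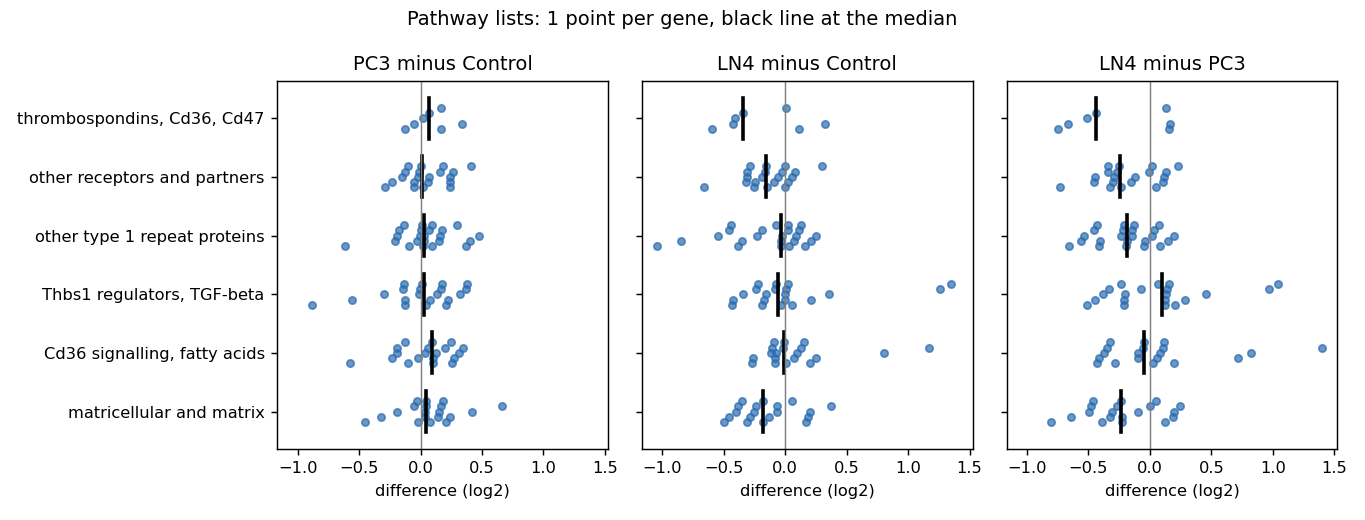
Difference in log2 RMA value (horizontal axis) of each tested gene in 6 lists for the 3 comparisons, with a black line at the median. The medians of the members lie at -0.44 in LN4 minus PC3, -0.35 in LN4 minus Control and 0.07 in PC3 minus Control, and no gene shown passed the limma fit.

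Markers of the cells that make these proteins were read beside them. The 10 endothelial markers, for cells that carry Cd36, were all above the negative controls. In LN4 minus Control 10 of 10 were lower (median -0.28), and 8 of 10 without LN4 replicate 3 (median -0.11). Without that array, 47.5% of all tested genes were lower in this comparison (median 0.01). In LN4 minus PC3 8 of 10 were lower (median -0.09, or 0.06 without LN4 replicate 3). In PC3 minus Control 8 of 10 of these markers were lower (median -0.20). Cd36 itself was higher by 0.16 there, and at about 0 without PC3 replicate 5. Their summed linear level was 10850 and 11140 in Control, 9161 and 10390 in PC3, and 10350 and 8064 in LN4 lungs. Emcn, endomucin of capillaries and veins, was at 8.04 and 8.05 in LN4 lungs, below all 4 others (8.15 to 8.89). The part of endothelium in the Cd36 difference was not tested. The fibroblast and smooth muscle markers summed to 3794 and 3706 in Control, 3630 and 3720 in PC3, and 3281 and 2583 in LN4 lungs, with 7 of 10 lower in LN4 minus PC3 (median -0.30, or -0.12 without LN4 replicate 3). Their median level was 8.17 in LN4 replicate 1, against 8.10 to 8.17 in Control and PC3 lungs, and 7.59 in LN4 replicate 3. The alveolar macrophage markers summed to 7708 and 9016, 8381 and 8109, and 7043 and 6693 in the same order, with 7 of 10 lower (median -0.18, or -0.09 without LN4 replicate 3). The lung alveolar markers had 9 of 10 lower in LN4 minus PC3 (median -0.25, or -0.04 without LN4 replicate 3). In LN4 minus Control 9 of 10 were lower (median -0.14), but only 5 of 10 without LN4 replicate 3 (median -0.0093). Among the alveolar markers Abca3, the gene most like Thbs1, was at 9.88 and 9.61 in LN4 lungs and between 10.20 and 10.51 in the others. Lamp3, of the lamellar bodies of type 2 cells, was at 10.04 and 10.14 against 10.43 to 11.13. The part of these 3 lists in the differences of Thbs1, Thbs3, Cd36 and Cd47 was not tested. Platelets store thrombospondin-1. Of their 9 markers on the array, 1 was above the negative controls in all 6 arrays and 2 in any array. The 9 summed to 1308 and 1340 in Control, 1200 and 1076 in PC3, and 1364 and 1446 in LN4 lungs. In LN4 minus PC3, 8 of 9 were higher. The part of platelets in the Thbs1 difference was not tested. Ppbp, a platelet chemokine, was at 8.60 and 8.79 in Control, 8.24 and 8.31 in PC3, and 8.73 and 8.96 in LN4 lungs. The neutrophil and Gr1 markers, 10 on the array and 8 tested, had 6 of 8 higher in LN4 minus PC3 (median 0.18, or 0.19 without LN4 replicate 3), 7 of 8 lower in PC3 minus Control (median -0.19) and 5 of 8 lower in LN4 minus Control. Only 2 of the 10 were above the negative controls in all 6 arrays. S100a8, a neutrophil calcium-binding protein, was at 7.35 and 8.54 in Control, 6.32 and 7.03 in PC3, and 7.57 and 8.05 in LN4 lungs. The PC3 values were the lowest, but they were below the negative controls, as were those of Control replicate 2 and LN4 replicate 1. Ly6g, the Gr1 antigen gene, did not pass the filter on low values. The mesothelial markers summed to 9437 and 6953 in PC3 lungs and between 4379 and 5097 in the other 4. In PC3 minus Control 10 of 10 were higher (median 0.86). In LN4 minus PC3 9 of 10 were lower (median -0.67, or -0.69 without LN4 replicate 3). They did not follow Thbs3 throughout. In LN4 minus Control 9 of 10 were higher (median 0.25, or 0.18 without LN4 replicate 3), where Thbs3 differed by -0.41. PC3 replicate 4 had the higher sum, while Thbs3 was higher in PC3 replicate 5. The part of these markers in the order of Thbs3 was not tested.

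**Figure D5:**
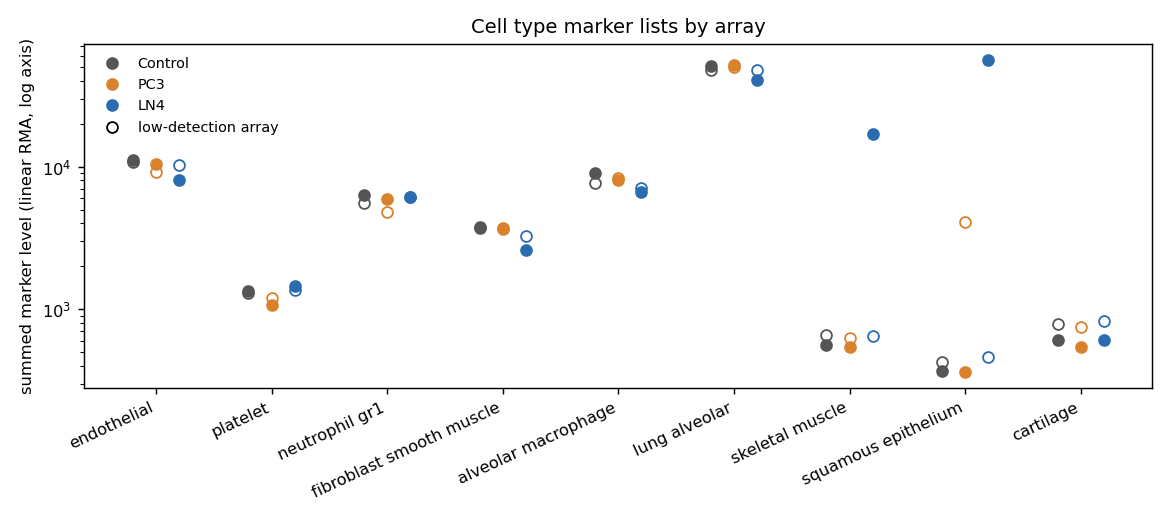
Summed linear RMA level of each marker list (vertical axis, log scale) in single lungs of the 3 groups, with open points for low-detection arrays. Skeletal muscle markers stand out in LN4 replicate 3, and squamous markers in that array and in PC3 replicate 4. Cartilage markers stay at background level in all 6.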

How the data were processed

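The deposited values are log2 values that the authors made with RMA, named in the submitters' processing notes, which corrects background, equalises the arrays and summarises probes, so each value depends on all 6 arrays. The sources used here give no software version. The deposited percent of detected exon-level probe sets and the mean raw intensity of background probes (306 to 431), per the file headers, came from the authors' chip report. In LN4 replicate 1 alone, the mean raw intensity of perfect match probes (290) was under that of background probes (312). The number of arrays limits the precision.

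The 2 deposited value tables agreed within 0.0001 for all 35556 probe sets. Of these, 7116 controls were left out, as was the 25% of the rest with the lowest mean, which left 21330. Symbols were updated through the RefSeq table of GRCm38.p6, with 22271 matches on accession, 1412 on symbol and 557 on a former symbol, while 764 stayed as named by the authors. A limma fit (limma 3.58.1, R 4.3.3) with 3 group means over all 6 arrays gave two-sided tests, adjusted by Benjamini and Hochberg's method across the whole table, and 95% intervals from the moderated SE with 3.885 prior and 3 residual degrees of freedom. It was tested on simulated data. Figures used Python 3.11.15 with matplotlib 3.10.9.

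Named are the 7 members, the 5 genes most like each member whose range was at least 0.5 (some in part, and 1 is not reported here), and in each pathway list, mostly, the 3 genes of smallest unadjusted p whose arrays did not overlap. From a marker list the gene of highest level or largest range may be named. Psap, Tgfb1, Pparg and Ly6g, and the neighbours of Thbs3, were added after their values were seen. The members and lists were chosen with earlier results of these data known. Alternatives covered the filter, the groups in the fit, the variance moderation, array weights, detection class as a block, the scaling, each lung left out, the 2 lungs with squamous genes left out, and the mean of both Cd47 probe sets. List medians without LN4 replicate 3 were added after seeing the data.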

Additional observations from a re-analysis of the deposited data

Results flagged for a closer look

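Thbs3 stood out because every PC3 lung lay above and every LN4 lung below every Control lung. Neither difference from Control passed, and the 95% intervals were -0.10 to 0.78 for PC3 and -0.85 to 0.03 for LN4 lungs. The difference between them, LN4 minus PC3, was -0.75 (SE 0.18), with 2 of 2 LN4 lungs below 2 of 2 PC3 lungs, and this test of the difference did not pass over all probe sets (limma adjusted p = 0.842). Within the low-detection pair it was -0.57, and within the high-detection pair -0.92. Of all tested probe sets 1.77% had the same order.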

How the results depend on the processing

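Of 288 recomputed differences of single members, 263 kept their sign and their side of the threshold. Many alternatives change only the filter, the spread or the weights and leave the difference itself as it was, so they could not turn a sign. The 10 of 21 differences that kept their sign in all alternatives run included all 8 of Thbs1, Thbs3, Cd36 and Cd47 in the 2 comparisons with LN4. Leaving out lungs could not turn those 8, since both LN4 lungs lay below all others. Leaving out 1 lung turned the differences that did not keep their sign. PC3 minus Control ran from -0.12 to 0.26 for Thbs1, -0.18 to 0.51 for Thbs2, -0.29 to 0.18 for Thbs4, -0.44 to 0.19 for Comp, -0.00375 to 0.33 for Cd36 and -0.10 to 0.14 for Cd47. LN4 minus Control ran from -0.091 to 0.32 for Thbs4 and -0.31 to 0.32 for Comp, and LN4 minus PC3 from -0.19 to 0.50 for Thbs2, -0.069 to 0.40 for Thbs4 and -0.065 to 0.32 for Comp. With arrays centred on their median, Cd47 in PC3 minus Control was at -0.00505 and Comp in LN4 minus Control at -0.000764. With both Cd47 probe sets averaged, PC3 minus Control was -0.12.

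Without LN4 replicate 3 and PC3 replicate 4 together, Thbs2 in PC3 minus Control was at -0.18, and Thbs1 (-0.73), Thbs3 (-0.86) and Cd36 (-0.70) passed in LN4 minus PC3. That fit has 1 residual degree of freedom, from the Control lungs, and called 514 probe sets in PC3 minus Control, 200 in LN4 minus Control and 2593 in LN4 minus PC3. Over the single lungs left out, the calls ranged from 0 to 853 in LN4 minus Control and from 0 to 715 in LN4 minus PC3, the upper values without LN4 replicate 1, where the array with muscle and squamous genes is alone in its group and is assumed to vary like the other groups. No member was among those calls. The other alternatives called 0 probe sets. Thbs2, Thbs4 and Comp have no value among probe sets above the negative controls, since all 3 lie below. No paired analysis was possible because the groups share fewer than 2 replicate numbers. Genes near the background are limited by signal, and all by 2 mice per group.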
